A study of Mus musculus with 6 samples.

Results

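Granzymes and perforin are the proteins with which cytotoxic lymphocytes kill, and 6 of their genes were followed here among the 31053 genes measured in mouse splenocytes. The members were listed by name, whatever their levels: 4 granzyme genes (Gzma, Gzmb, Gzmk and Gzmm), the perforin gene Prf1, and Nkg7, which encodes a membrane protein of the killing granule and is not itself a granzyme. The study examined whether platelet factor 4 (PF4), a platelet chemokine, changes the ageing immune system, and profiled spleens by CITE-seq, in which droplets capture the RNA of a cell together with DNA-tagged antibodies on its surface. The groups were male C57BL/6 mice of 3 months given saline, of 20 months given saline, and of 20 months given recombinant mouse PF4 at 5 µg/mL, each as 8 tail-vein injections of 100 µL over 24 days. Cells of 5 mice were pooled into 1 library per group, so animals cannot be told apart. The combined matrix marks its cells with 3 barcode suffixes, which no label used here ties to a group. The libraries are therefore called 1, 2 and 3, and no group was compared with another. With 1 library per group there was no replicate, no test was made and no p-value is given. Every interval is an exact 95% interval that covers counting error only.

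Granzymes are serine proteases stored in the granules of natural killer (NK) cells and cytotoxic T cells. Perforin opens the membrane of the target cell, and granzymes then enter and cut proteins inside it. Granzyme B cuts substrates that start programmed cell death, granzymes A and K are tryptases that also act outside the cell, and granzyme M prefers to cut after methionine or leucine. Nkg7 takes part in granule release. Naive T cells and B cells are not known as killers, so B cells served as the population that should lack these transcripts.

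Cells with 300 to 5000 genes and at most 10% mitochondrial transcripts were kept, which left 4199, 7511 and 8451 cells in libraries 1, 2 and 3, or 20161 of 29005 barcodes. These held 20032690, 32270524 and 35697547 transcripts, each counted once as a unique molecular identifier (UMI), with medians of 3741, 3625 and 3765 UMIs per cell. Levels are given as CPM, the UMIs of a gene summed over a group of cells and scaled to all RNA UMIs of those cells. Cells were grouped in 2 ways, by antibody gates and by RNA clusters from which the 6 members had been left out. The CD8a gate carried the T cell gene Cd3e at 533.4, 502.3 and 624.1 CPM in libraries 1, 2 and 3, and Cd4 at 1.06, 0.446 and 1.38 CPM, against 280.6, 307.9 and 289.3 CPM of Cd4 in the CD4 gate. The NK-1.1 gate, which took NK-1.1-positive cells that were negative for CD4, CD8a and the B cell antibodies, carried the NK receptor gene Ncr1 at 989.6, 932.0 and 726.0 CPM. Library 1 stood apart by red cell transcripts: the 7 erythroid genes listed summed to 2947 CPM in its CD8a gate, against 239.9 and 110.7 in libraries 2 and 3. Between suffixes, 68 barcode sequences recurred, 43 of them among kept cells, and leaving those cells out changed none of the counts of called members.

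In the mm10 annotation Gzma (ENSMUSG00000023132) lies at chr13:113093825-113100981 and Gzmk (ENSMUSG00000042385) at chr13:113171608-113225908, neighbours on the minus strand with 70626 bp between them. Gzmk overlaps Esm1, a gene of the opposite strand. Gzmb (ENSMUSG00000015437) lies at chr14:56258838-56262260 on the minus strand, at the end of a row of further granzyme genes. Gzmm (ENSMUSG00000054206) at chr10:79689020-79695261 and Prf1 (ENSMUSG00000037202) at chr10:61297833-61304680 share a chromosome and the plus strand but are far apart, and Nkg7 (ENSMUSG00000004612) lies at chr7:43437073-43438249 on the plus strand. All 6 are protein-coding genes.

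The 4 granzyme genes had 4 different distributions over the lymphocytes, described below, so the 250 bases before their RefSeq start sites are shown here (build GRCm38.p6, each written 5′ to 3′ on the strand of the gene). Capitals mark letters of 3 motifs bound by factor families of cytotoxic lymphocytes, searched on both strands: TCACAC (T-box, the family of T-bet and Eomes), TGTGGT (RUNX) and TGANTCA (AP-1). A match is a string of letters and not a shown binding site.
Gzma, chr13:113100982-113101231, minus strand: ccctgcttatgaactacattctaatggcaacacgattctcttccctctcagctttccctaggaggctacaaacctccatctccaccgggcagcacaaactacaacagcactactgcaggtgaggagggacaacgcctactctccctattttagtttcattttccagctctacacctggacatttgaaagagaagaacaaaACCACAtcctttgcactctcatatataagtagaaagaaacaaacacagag
Gzmb, chr14:56262335-56262584, minus strand: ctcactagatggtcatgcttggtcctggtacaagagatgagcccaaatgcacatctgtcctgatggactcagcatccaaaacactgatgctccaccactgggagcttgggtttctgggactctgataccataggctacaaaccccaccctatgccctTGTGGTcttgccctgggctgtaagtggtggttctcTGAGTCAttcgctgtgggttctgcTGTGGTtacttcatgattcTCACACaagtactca
Gzmk, chr13:113180966-113181215, minus strand: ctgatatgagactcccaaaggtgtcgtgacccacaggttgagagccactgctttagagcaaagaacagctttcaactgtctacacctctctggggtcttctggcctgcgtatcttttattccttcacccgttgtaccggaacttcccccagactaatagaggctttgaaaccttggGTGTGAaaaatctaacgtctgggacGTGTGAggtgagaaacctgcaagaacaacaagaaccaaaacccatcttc
Gzmm, chr10:79688770-79689019, plus strand: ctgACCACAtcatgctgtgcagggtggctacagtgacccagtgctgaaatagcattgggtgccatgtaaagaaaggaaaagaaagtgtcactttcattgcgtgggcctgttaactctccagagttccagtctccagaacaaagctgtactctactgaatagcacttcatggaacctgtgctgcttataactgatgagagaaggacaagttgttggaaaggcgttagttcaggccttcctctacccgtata
Gzma held 1 RUNX match, 50 bases before the start. Gzmb held 2 RUNX matches, 1 T-box match and 1 AP-1 match, of which the T-box letters stood 15 bases before the start. Gzmk held 2 T-box matches and neither of the other motifs, and the start of the Gzmk gene in the mm10 annotation lies further upstream than the RefSeq start used. Gzmm held 1 RUNX match at this start and 1 T-box match before a second RefSeq start inside the gene, Prf1 held 1 RUNX match, and Nkg7 held 1 T-box and 1 RUNX match. For comparison, 12.3% of 32817 such windows of RefSeq genes held the T-box letters, 14.0% the RUNX letters and 6.75% the AP-1 letters.

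Gzma was an NK cell transcript. The 475 NK-like cells, a cluster named from NK receptor genes, held 85.0% of its 15014 UMIs, at 5419, 5243 and 7396 CPM in libraries 1, 2 and 3. No other cluster overlapped that range. The next in order were cycling cells at 1883, 296.7 and 273.8 CPM, where single cells carried the level: 1 cell held 391 of the 764 UMIs of library 1. The exhausted or effector memory T-like cluster followed at 125.6, 467.2 and 1108 CPM, and these 2 ranges overlapped each other. This T cell cluster was named from Pdcd1, Tox, Lag3, Tigit, Nr4a2, Eomes, Ccl5 and Ccl4, and its 10 leading genes also held Havcr2, an inhibitory receptor gene, Trgv2 of gamma delta T cells and Hba-a1, a red cell gene. B-like cells had 0.977, 3.50 and 8.85 CPM of Gzma, highest in library 3, which also had the most NK-like cells (291, against 67 and 117).

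Gzmk lay mainly in the exhausted or effector memory T-like cluster. Its 414 cells held 74.6% of the 1115 Gzmk UMIs, at 544.8, 461.5 and 491.5 CPM in the 3 libraries, although the cluster held 252, 141 and 21 cells of them. The intervals, 499.9 to 592.6, 404.8 to 523.8 and 366.0 to 646.3, overlapped. Cycling cells came next at 41.9, 61.4 and 48.4 CPM, below that range in every library, and the memory or follicular helper CD4 T-like cluster at 46.3, 26.6 and 6.58. NK-like cells, the richest in Gzma, the chromosomal neighbour of Gzmk, had 3, 5 and 1 Gzmk UMIs. In cells thinned to 1000 UMIs each, Gzmk was seen in 37.1% of the T cell cluster (32.2 to 42.1). It was seen in 0.218% of NK-like cells (0.00553 to 1.21) and 0.0472% of B-like cells (0.0129 to 0.121), and these intervals overlapped. At full depth its level over all libraries was 4.645 CPM (2.124 to 8.817) in NK-like cells. That lay above the 0.5018 CPM (0.2809 to 0.8276) of B-like cells, but rests on 9 UMIs, 5 of them in 1 cell of library 2. Gzmk was also the gene that led the cluster over other cells, although it had not been used to form it, and a cluster set against the rest is a description and no test. The study itself showed Gzmk and Pdcd1 levels over all cell clusters of these samples, so the place of Gzmk here is not independent evidence.

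Gzmm lay mainly in memory CD8 T-like cells, a cluster named from Cd8a, Cd8b1, Ly6c2, Il2rb, Cxcr3, Cd44 and Eomes. The 1103 cells held 81.3% of its 2330 UMIs, at 267.2, 259.9 and 55.5 CPM in libraries 1, 2 and 3. Libraries 1 and 2 lay close together, and library 3 lay below both with an interval of 43.6 to 69.7 CPM. Of the 244, 656 and 203 cells of this cluster, the CD8a gate took 202, 546 and 92. A further 21, 46 and 84 were negative for CD4, CD8a, NK-1.1 and the B cell antibodies. The levels of this cluster in library 3, for every member, are thus in large part not of CD8a-positive cells. The next cluster in order, T4, had 45.7 CPM over all libraries and overlapped library 3 of the memory CD8 T-like cells. T4 was left unnamed because it led with B cell genes while scoring as T cells. In thinned cells Gzmm was seen in 15.3% of memory CD8 T-like cells (13.3 to 17.6), in 2.40% of NK-like cells, in 2.09% of the exhausted or effector memory T-like cells and in 0 of 1175 naive CD8 T-like cells, which allows up to 0.313%.

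Gzmb, the granzyme that starts cell death, was shared by NK and T cells. NK-like cells had 450.2, 174.4 and 251.4 CPM and the exhausted or effector memory T-like cluster 232.2, 123.6 and 260.2, so that the order of the 2 was not resolved. They held 34.5% and 21.6% of its 1493 UMIs. Memory CD8 T-like cells held a further 22.3% at a lower level, 37.4 and 50.4 CPM in libraries 1 and 2 and 3.75 in library 3. Basophil-like cells ranked between these at 189.0 CPM over all libraries, but the value came from 46 UMIs in 3 cells, 35 of them in 1 cell.

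Prf1, the pore-forming protein, kept one order in the 3 libraries. NK-like cells had 553.1, 554.9 and 704.5 CPM, the exhausted or effector memory T-like cluster 234.2, 152.5 and 212.0, and memory CD8 T-like cells 105.2, 116.2 and 59.3, and none of these ranges overlapped. Naive CD8 T-like cells, in which Gzma, Gzmb, Gzmk and Gzmm reached at most 7.45 CPM in any library, carried Prf1 at 40.2, 41.6 and 41.4 CPM. The 3 intervals overlapped, from 26.5 to 58.5 CPM in library 1, and lay above the 3.91, 3.58 and 3.41 CPM of B-like cells.

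Nkg7 was the widest of the 6. It reached 2736, 1944 and 2352 CPM in the exhausted or effector memory T-like cluster and 2338, 1889 and 1983 CPM in NK-like cells, and these ranges overlapped. Memory CD8 T-like cells had 1012, 959.7 and 665.7 CPM and the unnamed cluster T9, whose leading genes included Zbtb16 and Cxcr6 of innate-like T cells, 1019, 958.3 and 761.6, again overlapping. Naive CD8 T-like cells still had 402.1, 378.9 and 314.3 CPM, against 7.82, 14.8 and 9.68 in B-like cells. Most of its UMIs lay in T cell clusters, which held 75.4% of the 22112, against 17.7% in NK-like cells. By library the T cell clusters held 80.85%, 85.43% and 54.14% and NK-like cells 11.22%, 8.767% and 38.42%. The T cell clusters counted here include the unnamed T4, with 6.463% of all Nkg7 UMIs.

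**Figure D1:**
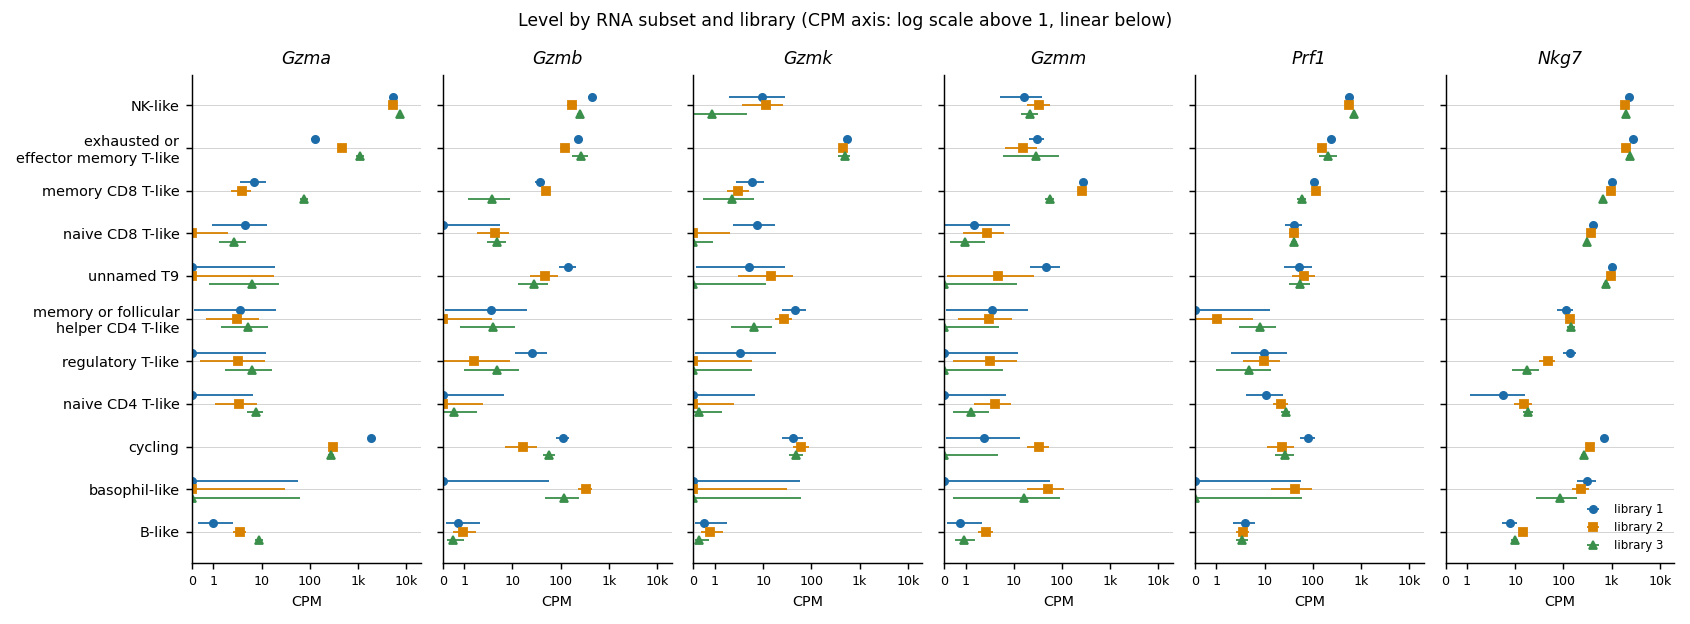
Level of each gene (columns, horizontal axis in CPM, logarithmic above 1 and linear below) in 11 RNA clusters (rows), with 1 point per library and exact 95% Poisson intervals as bars. Gzma peaks in NK-like cells, Gzmk in the exhausted or effector memory T-like cluster at 544.8, 461.5 and 491.5 CPM, and Gzmm in memory CD8 T-like cells at 267.2, 259.9 and 55.5 CPM.

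Antibody gates sorted the cells without use of RNA, and the question was which members separate CD8 from CD4 T cells. A gene was called when it was at least 2-fold apart in the same direction in each of the 3 libraries. Between the CD8a gate (477, 963 and 854 cells) and the CD4 gate (395, 747 and 1218 cells), Gzmm and Nkg7 were called, 2 of 6 members higher in the CD8a gate and none lower, where 1.01% of all 10182 genes tested were called higher and 3.33% lower. Gzmm stood at 155.4, 188.1 and 14.4 CPM in the CD8a gate and at 1.29, 4.01 and 0.937 in the CD4 gate, which rests on 2, 12 and 5 UMIs and in library 1 has an interval of 0.156 to 4.66 CPM. That is a 46.9-fold difference in library 2 and a 15.4-fold difference in library 3. Nkg7 stood at 1234, 847.5 and 400.8 CPM in the CD8a gate against 568.9, 145.8 and 61.3, a 2.17-fold, 5.81-fold and 6.54-fold difference. Nkg7 is a gene that the study itself named on these samples, so its direction here is not independent evidence. Gene by gene, the median over libraries had a median of 1.80 on the log2 scale over the 6 members and of -0.19 over all genes tested.

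The other 4 members did not separate the gates in every library. For Gzmk the CD8a gate had 103.1, 19.3 and 5.73 CPM and the CD4 gate 135.5, 41.1 and 3.94, so that the CD4 gate was higher in libraries 1 and 2 and lower in library 3. Gzmb had 61.5, 43.5 and 8.70 CPM against 44.5, 2.01 and 4.31. Prf1 had 108.8, 101.0 and 48.0 CPM against 52.3, 21.4 and 27.2, short of 2-fold in library 3 alone (1.77-fold). Gzma, finally, had 39.2, 27.9 and 58.5 CPM against 3.87, 2.68 and 43.1. Library 3 decided these last 2 genes: without it Gzma and Prf1 were called too and the count was 4 of 6. Without library 1 the count was 3, with Gzmb added. Of all genes tested, 1.96% were called higher without library 3 and 1.4% without library 1.

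Few NK-like cells carried much of the Gzma of library 3. In its CD8a gate 3 NK-like cells held 56.1% of the Gzma UMIs, and the level was 25.8 CPM without them. In its CD4 gate 4 such cells held 60.0%, with 17.3 CPM left, and in its B gate 35 held 89.9%, with 7.49 CPM left of 73.0. With NK-like cells left out of all gates but the NK-1.1 gate, the same members were called between gates. Doublets were marked by Scrublet in 2.5% of cells, and the same members were called between gates without them.

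**Figure D2:**
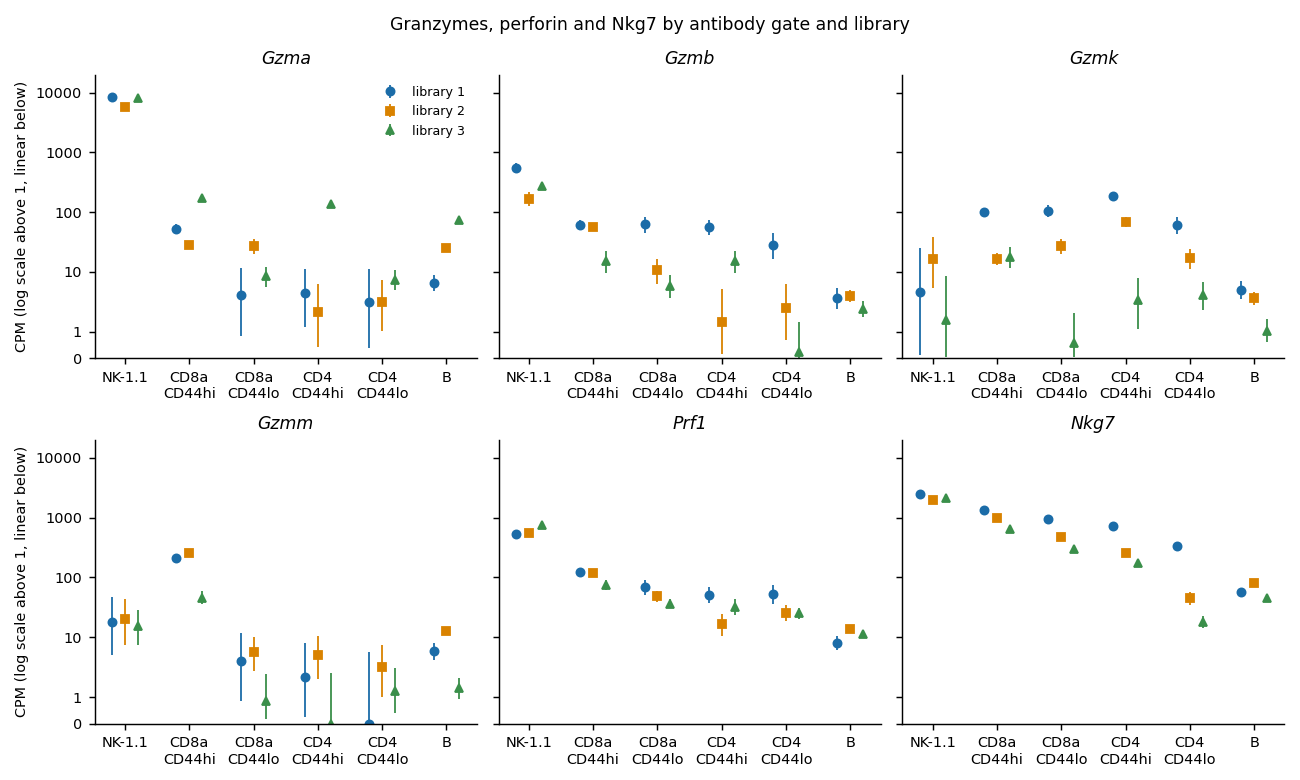
Level of each gene in antibody gates (horizontal axis, with CD44hi and CD44lo for the CD44-high and CD44-low cells of a gate), with 1 point per library, CPM on a vertical axis that is logarithmic above 1 and linear below, and exact 95% Poisson intervals as bars. Gzmm rises from the CD44-low to the CD44-high cells of the CD8a gate in each library, and Gzmk of the CD4 gates is highest in library 1.

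CD44, an adhesion receptor that rises on T cells that have met antigen, split Gzmm, with the line between high and low drawn in each library on its own. In the CD8a gate Gzmm had 208.8, 254.1 and 46.2 CPM in CD44-high cells and 4.06, 5.59 and 0.846 in CD44-low cells, the latter from 3, 10 and 3 UMIs, with upper limits of 11.9, 10.3 and 2.47 CPM. The difference in library 2 was 45.5-fold. It was the only member of 6 called, where 1.61% of 9271 genes tested were called higher and 0.518% lower. Gzmk was not higher with CD44 in libraries 1 and 2 of this gate, at 102.3 and 16.6 CPM in CD44-high and 105.7 and 26.8 in CD44-low cells. In library 3 it was higher, at 17.8 CPM (11.8 to 25.9) against 0.564. This CD44-low value rests on 2 UMIs and has an interval of 0.0683 to 2.04 CPM. The exhausted or effector memory T-like cluster made up 21.3%, 7.25% and 0.155% of the CD44-low CD8a cells in libraries 1, 2 and 3. Its part in these values was not tested.

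Prf1 and Nkg7 were higher in CD44-high cells of the CD8a gate in the 3 libraries but short of 2-fold in library 1. Prf1 had 122.8, 120.2 and 74.6 CPM against 69.1, 48.1 and 36.7. Nkg7 had 1336, 983.0 and 639.0 CPM against 945.5, 473.0 and 299.0. Gzmb had 61.2, 55.4 and 15.2 CPM against 62.3, 10.6 and 5.92, level in library 1 and higher with CD44 in the others. Without library 1 these 3 genes were called beside Gzmm, and without library 2 Gzma was. Of all genes tested, 2.46% and 1.9% were called higher under these 2 settings. The median over the 6 members was 1.21 on the log2 scale, against -0.01 over all genes. Lists of other cell types had medians of 1.95 (5 erythroid genes tested), 1.23 (5 myeloid genes), 2.43 (8 NK cell genes) and -0.30 (9 B cell genes). The rise was thus not particular to the members, and the part of other cells in it was not tested.

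In the CD4 gate only 3 members had enough UMIs in each library, and Nkg7 was called, 1 of 3 higher in CD44-high cells, where 3.99% of 8829 genes tested were called higher and 0.328% lower. Nkg7 had 730.9, 261.0 and 176.4 CPM in CD44-high cells against 339.7, 45.1 and 18.0 in CD44-low cells. Gzmk had 188.2 and 68.8 CPM against 60.8 and 16.9 in libraries 1 and 2, and 3.43 against 4.12 in library 3, where both rest on few UMIs. Prf1 did not follow CD44 here, at 51.7, 16.5 and 32.3 CPM against 53.0, 25.7 and 25.3. Library 1 lay at 2.15-fold, close to the threshold, and the call of Nkg7 was lost under 3 other settings at the same fold. Without library 2 Gzmb was called beside Nkg7, and without library 3 Gzmk was, where 4.76% and 5.76% of all genes tested were called higher. The CD44 antibody was split least cleanly in the CD4 gate of library 3, and erythroid genes summed to 9998 CPM in the CD44-high and 1041 CPM in the CD44-low CD4 cells of library 1. The part of either in the values was not tested. The 3 members had a median of 1.63 on the log2 scale, against 0.18 over all genes.

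Against the CD8a gate, the NK-1.1 gate (43, 82 and 170 cells) was higher in 4 of 6 members, Gzma, Gzmb, Prf1 and Nkg7, where 4.47% of 9485 genes tested were called higher and 1.09% lower. Gzma had 8482, 5733 and 8106 CPM, 216.3-fold, 205.3-fold and 138.6-fold the CD8a gate. Gzmb had 556.4, 167.6 and 271.5 CPM and Prf1 524.4, 553.2 and 749.3, with lowest ratios to the CD8a gate of 3.85 in library 2 and 4.82 in library 1. Nkg7 had 2508, 1988 and 2138 CPM, and its lowest ratio of 2.03 in library 1 lay close to the threshold. Its call, and with it the count of 4, was lost with CPM taken without mitochondrial and ribosomal protein genes, with the mean of CPM per cell and with thinned cells, each of which left 3 members. Under these settings 2.8%, 4.5% and 3.2% of all genes tested were called higher. Gzmm went the other way in libraries 1 and 2, with 18.2 and 20.1 CPM in NK cells against 155.4 and 188.1, and 15.5 against 14.4 CPM in library 3. Without library 3 it was called lower. Gzmk had 1, 5 and 1 UMIs in the NK-1.1 gate. Its upper limit there was 25.4 CPM in library 1, below the CD8a gate (91.7 to 115.7), whereas in libraries 2 and 3 the intervals of 5.44 to 39.1 and 0.0393 to 8.64 CPM overlapped those of the CD8a gate. The median over the members was 1.84 on the log2 scale, against 0.24 over all genes.

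The 3 libraries were then set side by side within each gate, with no claim on which group each is. In the CD8a gate 6 of 6 members differed at least 2-fold between the highest and the lowest library, where 12.1% of 10133 genes tested did. Gzmk differed most, from 103.1 CPM in library 1 to 5.73 in library 3, an 18.0-fold difference, and Gzmm 13-fold from 188.1 in library 2 to 14.4 in library 3. Gzmb differed 7.07-fold and Nkg7 3.08-fold, with library 1 highest, followed by Prf1 with 2.27-fold and Gzma with 2.10-fold. Library 3 was the lowest for 5 of the 6, and the highest for Gzma, whose level there rested on the NK-like cells above. Without NK-like cells the count was 5, Gzma being the one lost, where 12.2% of genes tested were past 2-fold. Without library 3, Gzmk alone remained past 2-fold, where 3.14% of genes were.

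The makeup of the CD8a gate differed between the libraries too, and its part in the levels was not tested. The exhausted or effector memory T-like cluster made up 29.8%, 8.52% and 1.52% of the gate in libraries 1, 2 and 3, memory CD8 T-like cells 42.4%, 56.7% and 10.8%, and naive CD8 T-like cells 23.7%, 30.5% and 82.1%. Within the first of these clusters Gzmk had 500.1, 407.0 and 373.3 CPM from 285, 116 and 26 UMIs. Within memory CD8 T-like cells of the gate Gzmm had 271.1 and 274.8 CPM in libraries 1 and 2 and 90.3 in library 3, so a difference was also seen inside the cluster. Gzmb had 33.8, 53.7 and 2.74 CPM in the same cells, the last from 2 UMIs. Prf1 of naive CD8 T-like cells in the gate was level at 38.8, 41.1 and 40.6 CPM.

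**Figure D3:**
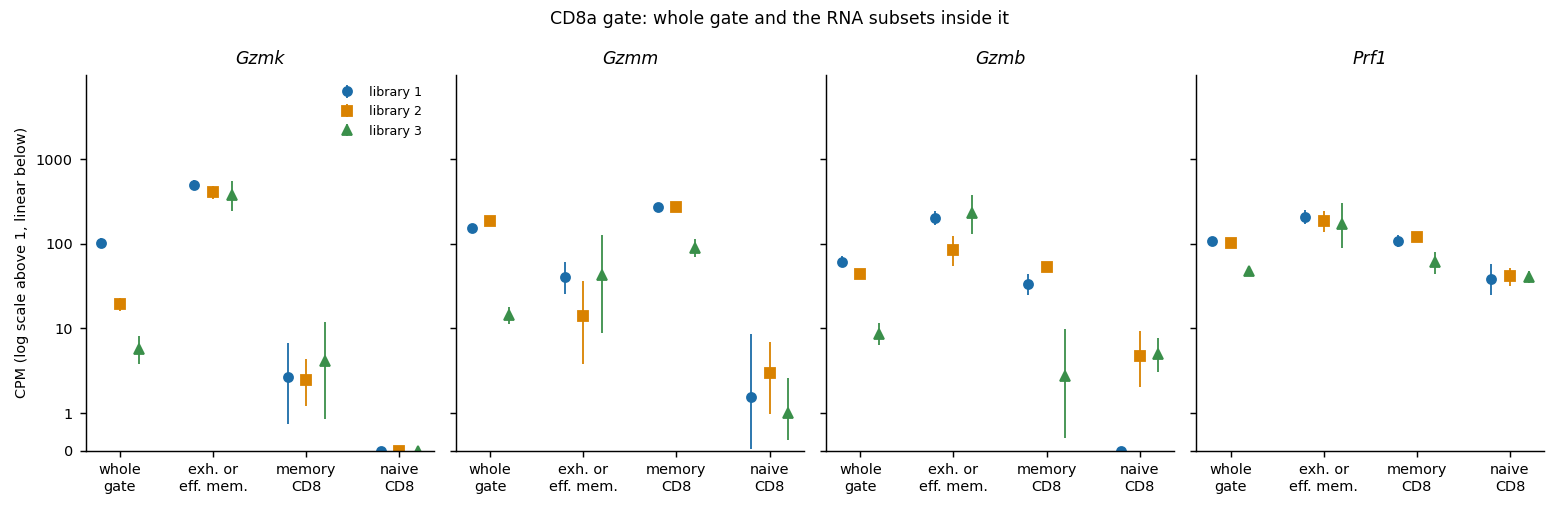
Gzmk, Gzmm, Gzmb and Prf1 in the whole CD8a gate and in 3 RNA clusters inside it, with 1 point per library, CPM on a vertical axis that is logarithmic above 1 and linear below, and exact 95% Poisson intervals as bars. Gzmk spans 103.1 to 5.73 CPM between libraries in the whole gate but 500.1 to 373.3 CPM inside the exhausted or effector memory T-like (exh. or eff. mem.) cluster.

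The share of cells with at least 1 UMI had the same order of libraries for Gzmk. With cells thinned to 1000 UMIs, 9.03%, 3.35% and 0.235% of the CD8a gate had Gzmk in libraries 1, 2 and 3, against 0.456%, 0.169% and 0.0910% of the B gate. The unthinned shares were 23.7%, 6.96% and 1.29% of CD8a cells at medians of 5905, 6906 and 5799.5 UMIs, and 0.887%, 0.602% and 0.151% of B cells at 3216.5, 3320 and 3475 UMIs. The thinned share of library 3 (interval 0.0285 to 0.846) was not distinguishable from that of the B gate at this depth. Gzmm was seen in 7.53% (5.30 to 10.3) and 12.7% (10.6 to 14.9) of the CD8a gate in libraries 1 and 2 and 0.470% (0.128 to 1.2) in library 3, against 0.261%, 0.482% and 0.114% of the B gate. In library 3 the thinned intervals overlapped (0.0369 to 0.265 in the B gate), whereas the unthinned shares of 4.10% (2.87 to 5.65) and 0.475% (0.298 to 0.718) did not, nor did the levels of 14.4 and 1.43 CPM. Thinned to this depth 12, 8 and 3 shallower cells of the CD8a gate were left out.

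In the CD4 gate 5 of 5 members tested differed at least 2-fold between libraries, where 13.2% of 9969 genes did. Gzmk led again, 34.4-fold from 135.5 CPM in library 1 to 3.94 in library 3. Nkg7 had the same order of libraries, 568.9, 145.8 and 61.3 CPM, a 9.29-fold difference. Gzmb differed 22.2-fold, from 44.5 CPM to the 6 UMIs of library 2, and Prf1 2.44-fold. Gzma differed 16.1-fold, and library 3 was highest both with the 4 NK-like cells above (43.1 CPM) and without them (17.3 CPM). Erythroid genes summed to 6290, 102.0 and 166.4 CPM and myeloid genes to 1489, 362.7 and 298.9 CPM in the same gate, again with library 1 highest, and their part in these differences was not tested. Without library 1, 4 members had enough UMIs and 3 were called, Gzma, Gzmk and Nkg7, where 3.8% of all genes tested were. Among CD44-high CD8a cells 5 of 6 members were past 2-fold, where 12.2% of genes were, and among CD44-high CD4 cells 5 of 5, where 13.4% were. Without library 3 Gzmk alone was called in the former, where 2.97% of genes were. Without library 1 Gzma, Gzmb and Gzmm were called in the former, where 5.64% were. In the latter Gzma and Gzmk were called without library 1, where 3.77% were. Naive CD8 T-like cells made up 2.68%, 1.74% and 40.5% of the CD44-high CD8a cells in libraries 1, 2 and 3. The exhausted or effector memory T-like cluster made up 33.3%, 9.18% and 5.71% of them. The part of this makeup in the differences was not tested.

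Most Gzmk UMIs of the CD4 gate lay in the same cluster as those of the CD8a gate, 184 of 210, 78 of 123 and 15 of 21 in libraries 1, 2 and 3. The exhausted or effector memory T-like cluster held 74, 32 and 2 cells of the CD4 gate, 18.7%, 4.28% and 0.164% of that gate in libraries 1, 2 and 3. Their Gzmk level was 670.6 CPM in library 1 and 677.5 in library 2, beside 500.1 and 407.0 in the CD8a cells of the cluster, and the 15 UMIs of library 3 came from 2 cells. Gzma had 10.9 and 0 CPM in the CD4 cells of libraries 1 and 2, from 3 and 0 UMIs, against 166.7 and 589.4 in the CD8a cells. Gzmb had 189.5 and 52.1 CPM in the CD4 cells of libraries 1 and 2, the latter from 6 UMIs, against 203.6 and 84.2 in the CD8a cells. Prf1 had 218.7 and 112.9 CPM against 208.8 and 185.9.

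Library differences were smaller in the NK-1.1 gate, where 1 of 4 members tested, Gzmb, was past 2-fold and 19.2% of 5482 genes were. Gzmb had 556.4, 167.6 and 271.5 CPM, and the call was lost without library 1. Gzma, Prf1 and Nkg7 differed 1.48-fold, 1.43-fold and 1.26-fold. In the B gate Gzma, Gzmk and Gzmm were past 2-fold, 3 of 6, where 11.6% of 12091 genes were. With NK-like cells left out all 6 were, where again 11.6% of genes were. Gzmk had 5.08, 3.64 and 1.04 CPM in the B gate and 0.489, 0.786 and 0.279 in B-like cells, and Nkg7 57.9, 81.9 and 45.9 CPM against 7.82, 14.8 and 9.68. The B gate thus stood above the B-like cells, and it also held cells of other clusters, so that B-like cells are the lower reference.

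NK cells mature from CD27+ CD11b- through CD27+ CD11b+ to CD27- CD11b+ cells, and the antibodies divided the NK-like cells accordingly. Gzma rose along this order in every library, from 632.4, 1958 and 3530 CPM through 5477, 7138 and 8918 to 15915, 14532 and 11776 CPM. Library 3 was the highest at the first and second stages and the lowest at the last. Prf1 rose in the same order, over all libraries from 330.3 (292.2 to 371.9) through 772.4 (677.6 to 876.8) to 1177 CPM (1070 to 1292). Gzmb had 91.9, 426.6 and 544.4 CPM, but its middle value came from library 1 (1012 CPM, from 13 cells) and was 133.7 and 226.2 in the others. Nkg7 was lowest at the first stage, 1563 CPM, and similar at the later ones, 2404 and 2487. Gzmm had 36.3 (24.5 to 51.8), 22.6 (9.10 to 46.6) and 8.01 CPM (1.65 to 23.4), from 30, 7 and 3 UMIs, over all libraries, so that only the first and last intervals were apart. No single library fell from stage to stage throughout with UMIs at each: library 3 had 25.7, 42.8 and 7.34 CPM, library 1 32.9, 0 and 23.1, and library 2 59.0, 0 and 0. Cells without either antibody, whose place in this order the antibodies do not give, had 8108 CPM of Gzma. The 3 stages held 177, 56 and 109 cells.

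**Figure D4:**
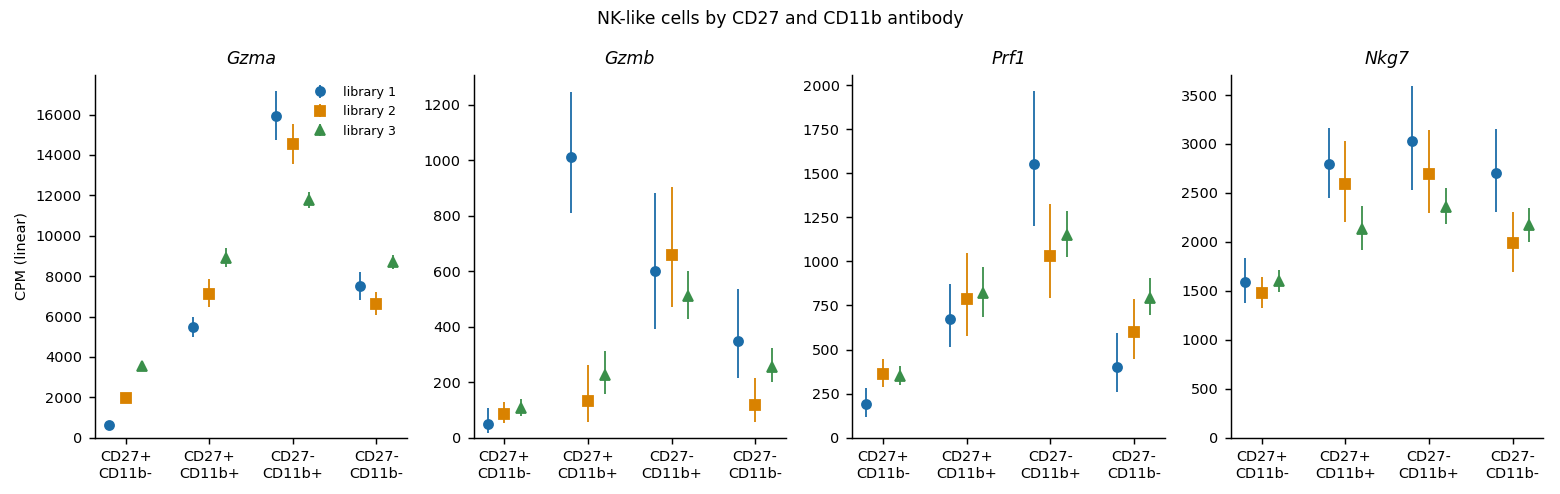
Gzma, Gzmb, Prf1 and Nkg7 in NK-like cells divided by the CD27 and CD11b antibodies (horizontal axis), with 1 point per library, CPM on linear axes from 0 that differ between panels, and exact 95% Poisson intervals as bars. Gzma goes from 632.4, 1958 and 3530 CPM in CD27+ CD11b- cells to 15915, 14532 and 11776 CPM in CD27- CD11b+ cells.

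Surface antibodies divided the cells with Gzmk from those with Gzmm, and of the antibodies named here the gates had used CD44 alone. The comparison took thinned cells of the CD8a gate in libraries 1 and 2, since library 3 had too few cells with either gene. Cells with a Gzmk UMI had a median Ly-6C antibody count of 149.5 in library 1 and 171.5 in library 2, against 267.0 and 345.0 in cells without. Cells with a Gzmm UMI had 413.0 and 471.0, against 197.0 and 299.5. Ly-6C, a protein of memory CD8 T cells, was thus lower with Gzmk and higher with Gzmm in both libraries. The transcript of a Ly-6C gene, Ly6c2, was among the markers that named the memory CD8 T-like cluster, but the antibody was not used there. Antibody counts were not scaled to the antibody total of a cell. The medians of CD44 moved the same way, at 109 and 128.5 with Gzmk against 174 and 202 without. With Gzmm they were 299 and 269 against 143 and 175. The CD44 quartiles overlapped for Gzmk, at 74.25 to 175.5 and 56 to 182 with it against 38 to 273 and 27 to 272 without. Of unthinned CD8a cells with Gzmk, 87 of 113 and 47 of 67 were CD44-high, so the lower median does not make them CD44-low. CD27 medians also moved as those of Ly-6C did, at 36.5 and 32 with Gzmk against 47 and 48, and 67 and 60 with Gzmm against 45 and 46.

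CD38, an ectoenzyme that breaks down NAD and is carried by activated lymphocytes, was higher with Gzmk, and higher by less with Gzmm. Its median was 53 and 103.5 in CD8a cells with Gzmk against 18 and 15 without, and 28 and 17 with Gzmm against 19 and 15 without. The same held for Gzmk in the CD4 gate, with 63 and 41 against 15 and 13. The PD-1 antibody had low counts throughout, with medians of 7.0 and 9.5 in CD8a cells with Gzmk against 4.0 and 5.0 without. Cells with Gzmk numbered 42 and 32 in the CD8a gate and 37 and 24 in the CD4 gate, and cells with Gzmm 35 and 121 in the CD8a gate. CD27, which had divided the NK stages, was lower in NK-like cells where Gzma was seen, at medians of 11, 18.5 and 14 against 33, 30.5 and 33 in the 3 libraries.

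**Figure D5:**
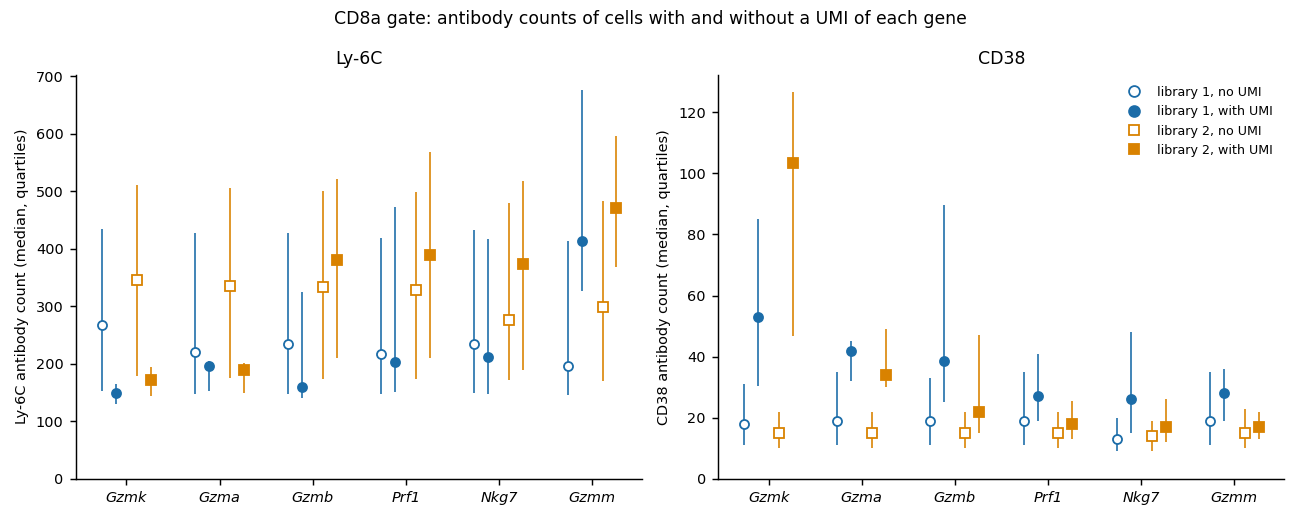
Antibody counts per cell (vertical axes, linear from 0) for Ly-6C and CD38 in thinned CD8a cells of libraries 1 and 2 with (filled) and without (open) a UMI of each gene, as medians with quartiles as bars. Ly-6C has medians of 413.0 and 471.0 in cells with Gzmm and 149.5 and 171.5 in cells with Gzmk.

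Within single cells the members were seen together more often in NK cells than in T cells. In cells thinned to 1000 UMIs, 3 or more of the 6 members were seen in 45.4% of NK-like cells (40.8 to 50.1), 13.8% of the exhausted or effector memory T-like cells (from 53 of 383 cells), 1.56% of memory CD8 T-like cells (0.913 to 2.49) and 0 of 8472 B-like cells, which allows up to 0.0435%. Among the 2271 thinned cells of the CD8a gate, 27 had Gzma and 160 had Gzmm, and 0 had both, where the product of the shares gives 1.90 cells. Gzmk and Gzmm shared 2 cells where the product gives 5.35. Gzma and Gzmb shared 11 cells where it gives 0.785, and Gzmb and Gzmk 11 where it gives 2.21. These counts pool 3 libraries of different makeup and are given as a description.

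Over 57 cluster and library combinations with at least 30 cells, the pattern of each member was set against 7344 genes by Pearson correlation of log2(CPM + 10). The points share libraries, depth and the clusters themselves, so the coefficients are descriptive. Gzma was most like Klra9 (0.904), Klra4, Ncr1 and Klra8, all NK receptor genes, and Phactr3. Gzmb was most like Fasl (0.858), the death ligand, and genes like it included Klre1, Sytl3 and Ccl3. Gzmk was most like Epha3 (0.797), Rpa2, Kremen2, Zdhhc2 and Ccl4. Gzmm went with Wdr95 (0.793), Ifitm10, Ctla2a, Ccl5 and Samd3. Prf1 went with Samd3 (0.892), Ifitm10, Ctsw, Klre1 and Sytl3, and Nkg7 with Ctsw (0.929), the gene of a cathepsin of cytotoxic lymphocytes, Ifitm10, Gm14029, Sytl3 and Cd160. Among the members, Prf1 and Nkg7 were most alike (0.876) and Gzma and Gzmm least (0.267). Gzma and Gzmk, the chromosomal neighbours, had 0.426.

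The remaining mouse granzyme genes were nearly silent. Gzmc had 67 UMIs in 13 cells and Gzmf 2 UMIs in 2 cells, and Gzmd, Gzme, Gzmg and Gzmn had 0 UMIs in the 20161 kept cells. These genes lie in a row with Gzmb on chromosome 14 and resemble one another in sequence, so that reads shared between them may be missing from the counts.

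Genes that work with the members were counted from lists chosen with earlier results of these data known. The shares of all genes tested stand beside every list from here on. They were 1.01% higher and 3.33% lower between the CD8a and CD4 gates. With CD44 they were 1.61% and 0.518% in the CD8a gate and 3.99% and 0.328% in the CD4 gate. Between the NK-1.1 and CD8a gates they were 4.47% and 1.09%. Of 8 tested transcription factors of cytotoxic lymphocytes, 3 were higher in the CD8a than in the CD4 gate (Eomes, Runx3 and Hopx), 5 in CD44-high than in CD44-low CD8a cells (Tbx21, Eomes, Prdm1, Zeb2 and Hopx) and 5 in the NK-1.1 than in the CD8a gate (Tbx21, Prdm1, Zeb2, Id2 and Bhlhe40), with none lower. In the CD4 gate 4 of 7 tested were higher in CD44-high cells, Zeb2, Id2, Bhlhe40 and Hopx. Runx3, the most counted of them, had 299.1, 306.1 and 291.1 CPM in CD44-high and 299.4, 304.7 and 307.2 CPM in CD44-low CD8a cells, level in every library. Zeb2 had 28.7, 35.0 and 56.1 CPM against 5.42, 3.91 and 2.54, and Hopx 250.9, 251.9 and 128.1 against 78.6, 57.6 and 33.3. Eomes also stands among the NK cell genes and the cluster markers. The list's median in the CD8a gate was 1.92 on the log2 scale with CD44, beside 1.21 over the members.

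The listed serpins, a family with members that protect the killer from its own proteases, were called mainly in NK cells. In the NK-1.1 gate 3 of 5 tested were higher than in the CD8a gate, Serpinb9, Serpinb6b and Serpina3g, with none lower, and 0 of 5 were called between the CD8a and CD4 gates. Serpinb1a, the most counted, was a B cell transcript here, at 236.7, 206.4 and 216.9 CPM in the B gate and 13.7, 3.35 and 4.65 in the NK-1.1 gate. Serpina3g had 177.9, 130.7 and 83.8 CPM in NK-1.1 cells, and Serpinb9, an inhibitor of granzyme B, had 287.3, 207.9 and 254.4 CPM in NK-1.1 cells, against 33.5, 22.5 and 27.1 in CD44-high CD8a cells. In the CD4 gate Serpina3g was 1 of 5 called, higher with CD44. The list had a median of 2.25 on the log2 scale between the NK-1.1 and CD8a gates, beside 1.84 over the members and 0.24 over all genes.

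Granule packing genes were spread more evenly. Of 9 tested, 1 was higher in the CD8a than in the CD4 gate (Ctsw), 0 with CD44 in the CD8a gate, 3 with CD44 in the CD4 gate (Srgn, Ctsw and Cst7) and 1 in the NK-1.1 gate (Ctsd), with none lower. Srgn, the proteoglycan core that holds granzymes in the granule, had 801.3, 799.4 and 508.5 CPM in CD44-high CD4 cells, above the 366.5, 313.8 and 299.7 of CD44-high CD8a cells. Calr, the chaperone calreticulin, had 196.9, 176.6 and 183.5 CPM in CD44-high and 166.6, 194.6 and 192.7 CPM in CD44-low CD8a cells. Of 11 tested release genes, Cracr2a was higher and Stx11 lower in the CD8a than in the CD4 gate, Stx11 was higher with CD44 in the CD4 gate and in the NK-1.1 gate, and none was called with CD44 in the CD8a gate. Coro1a, an actin regulator and the most counted of them, lay between 752.5 and 1126 CPM in the T and NK cell gates, and Lyst, the gene of a regulator of granule size, had 203.1, 207.0 and 210.6 CPM in CD44-high against 135.5, 124.1 and 134.8 CPM in CD44-low CD8a cells.

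Of the other killing ligands and cytokines, Ccl5 was higher and Lta lower in the CD8a than in the CD4 gate, 2 of 9 tested. With CD44, 4 of 8 were higher in the CD4 gate, Fasl, Ifng, Xcl1 and Ccl4, and 0 of 7 in the CD8a gate. Against the CD8a gate, Fasl, Ifng and Xcl1 were higher in the NK-1.1 gate, 3 of 9. Ccl5, a chemokine stored by memory T cells, had 12169, 9390 and 3272 CPM in CD44-high CD8a cells and 7991, 1600 and 68.8 CPM in CD44-low ones. In both, libraries 1, 2 and 3 stood in the order of Nkg7. Xcl1, a chemokine that draws cross-presenting dendritic cells, had 556.4, 462.6 and 201.7 CPM in NK-1.1 cells.

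Of the 10 naive T cell genes, 1 was lower in the CD8a than in the CD4 gate (Igfbp4), 2 were lower with CD44 in the CD8a gate (Lef1 and Igfbp4), 5 with CD44 in the CD4 gate and 5 in the NK-1.1 gate, with none higher.

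Markers of other cell types moved with some of these contrasts. Of the NK cell genes, 7 of 8 tested were higher in CD44-high CD8a cells, 3 of 8 in the CD8a gate, 3 of 4 in CD44-high CD4 cells and 9 of 10 in the NK-1.1 gate. Their 10 levels summed to 405.7, 387.8 and 414.6 CPM in CD44-high and 93.5, 71.0 and 51.3 CPM in CD44-low CD8a cells, against 9755, 9652 and 9893 CPM in the NK-1.1 gate. Ncr1, which defines NK cells, had 0.478, 0.405 and 12.5 CPM in CD44-high CD8a cells, near 0 in libraries 1 and 2. Without NK-like cells Gzmm was still the member called with CD44 in the CD8a gate and Nkg7 in the CD4 gate. Of the myeloid genes, 0 of 8 tested were called between the CD8a and CD4 gates, 1 of 5 was higher in CD44-high CD8a cells, 5 of 6 in CD44-high CD4 cells and 2 of 7 in the NK-1.1 gate. The 2 in the NK-1.1 gate were Fcgr3 and Itgam, the latter the gene of CD11b, by which the NK stages were divided. The myeloid genes summed to 2195, 706.9 and 846.1 CPM in CD44-high and 489.2, 62.0 and 93.3 CPM in CD44-low CD4 cells, and their part in the CD44 contrast of Nkg7 was not tested. Of 5 erythroid genes tested in each contrast Car2 alone was called, higher in the NK-1.1 gate, and of 9 B cell genes none was called in any of the 4 contrasts.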

How the data were processed

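Splenocytes were profiled with a 10x Genomics 3′ kit and 34 antibodies. The deposited values were UMI counts per gene and antibody, made by the authors with Cell Ranger (5.0.1 per the file headers) on mm10 and aggregated over 3 libraries. Nothing read here says whether aggregation subsampled the reads. Cells were filtered as in the study. Gates were 2-component mixtures of log antibody counts per library at a posterior over 0.5, except the NK-1.1 mixture, fitted over all libraries after the data were seen. Clusters used 2000 variable genes, 20 principal components and Louvain at resolution 0.8 (scikit-learn 1.9.0, igraph 0.11.9). The members, mitochondrial genes and the listed genes that were no cluster markers were left out. Clusters of T and NK cells were clustered again in the same way, which gave those numbered with a T. Scrublet was run in scanpy 1.11.5. Names came from listed markers, with at least 3 seen in 5% of cells, a limit set after the data were seen. Calls took genes with 10 UMIs over both gates in every library, or 30 over the libraries in a gate, with sums below 3 set to 3. Intervals used scipy 1.17.1. Scripts were tested on simulated data. Positions came from GENCODE M21 and promoters from RefSeq. The members and lists were chosen with earlier results of these data known. Genes named were the members, the other granzymes, the 5 genes most like each member and the 2 to 4 most counted genes of each list of cytotoxic genes, and other called genes were named after their values were seen. Some genes that this rule names are not reported here.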

Additional observations from a re-analysis of the deposited data

How the results depend on the processing

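Of 160 counts of called members under other settings, 137 stayed within 1.5 times the value given. The exceptions follow. Nkg7, the only member called with CD44 in the CD4 gate, lost its call (count 0) with no limit on mitochondrial UMIs, with CPM taken without mitochondrial and ribosomal protein genes, with the mean of CPM per cell and at 3-fold. Of all genes tested, 3.9%, 3.1%, 2.4% and 1.6% were called higher under these settings. With CD44 in the CD8a gate the count was 2 at an antibody posterior of 0.9 and at 1.5-fold (Gzmm and Prf1), and 0 with cells thinned to 1000 UMIs, where only 3 members had enough UMIs. There 1.7%, 3.1% and 0.73% of all genes were called higher. Between the CD8a and CD4 gates the count was 1 at 3-fold (Gzmm), where 0.52% of genes were called higher. Between libraries it was 6 in the B gate at 1.5-fold, where 22.2% of genes were called. It was 2 in the NK-1.1 gate with no minimum of UMIs, where 20.7% were, and 3 in CD44-high CD4 cells when thinned, where 16.0% were. Leaving out 1 library in turn gave 2 to 4 members between the CD8a and CD4 gates, 1 to 4 with CD44 in the CD8a gate, 1 to 2 with CD44 in the CD4 gate and 4 to 4 between the NK-1.1 and CD8a gates. In that order 1.1% to 2.0%, 1.9% to 2.5%, 4.8% to 6.0% and 5.8% to 7.8% of all genes tested were called higher. Between libraries, leaving out 1 in turn gave 1 to 6 in the CD8a gate, 3 to 4 in the CD4 gate, 0 to 1 in the NK-1.1 gate, 1 to 5 in CD44-high CD8a cells, 2 to 4 in CD44-high CD4 cells and 2 to 3 in the B gate. In that order 3.1% to 6.5%, 3.8% to 9.0%, 3.6% to 9.1%, 3.0% to 5.6%, 3.8% to 6.8% and 2.8% to 6.9% of all genes were called. Nkg7 was no longer called between the NK-1.1 and CD8a gates without mitochondrial and ribosomal protein genes (0.91 as the median log2 difference), with the mean per cell (1.24), thinned (1.32) or at 3-fold. Added after the data were seen were the settings without NK-like cells in the other gates, which gave 6 in the B gate and left each other count within 1.5 times, without shared barcode sequences, without the cells of cluster T4, and the left-out libraries between libraries. Of 331 single-gene log2 differences 306 kept their call status, 16 became called and 9 lost the call, and no call reversed. These counts do not follow the direction of genes that were not called, which could change with the libraries kept. Gzmk with CD44 in the CD8a gate, for example, had log2 differences of -0.05, -0.69 and 4.40 in libraries 1, 2 and 3. No paired analysis was possible because each group has 1 library and the libraries carry no replicate number.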
